A study of Mus musculus with 12 samples.

Results

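Lungs of mice ventilated with large breaths were compared with lungs of control mice, on 3 Affymetrix arrays of total lung RNA from each group. These are the 3 arrays titled as ventilation without rhPBEF and the 3 titled as control, 6 of the 12 arrays in the series. Control mice received phosphate-buffered saline. Ventilated mice were kept for 4 hours on a tidal volume of 30 ml per kg of body weight, breaths large enough to overstretch lung tissue, and appear as VALI in the titles and VILI in the treatment field. All mice were 8 to 12 weeks old. The other 6 arrays came from mice given rhPBEF, recombinant human pre-B-cell colony-enhancing factor, put into the trachea at 20 µg for each mouse, in water at 1.5 µl per gram of body weight, with and without the same ventilation. The comparison of rhPBEF plus ventilation with rhPBEF shares no array with ventilation against control and is given beside it. Sex and strain are not in the labels, nor is any saline given to the ventilated mice. Nothing states that a group's replicates came from separate animals, and p-values then measure only the spread between these arrays, which may be technical. No smaller breath was tested, so the breath size cannot be told apart from ventilation as such.

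The array has 45037 probe sets besides its controls. Of these 34945 named a single gene, and taking for each gene the probe set with the highest mean over the 12 arrays gave 18193 genes. The 12921 genes with a mean above a log2 value of 6.42, the 40th percentile, were tested, and the 5272 below it are described at the end. Values are on the log2 scale throughout, and a difference is the ventilation mean minus the control mean.

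Overstretched lung is known to respond along several routes. Stretch-sensitive channels, adhesion complexes and shed growth factors switch on immediate early genes, and the transcription factors NF-kB and STAT3 drive cytokines and chemokines that call neutrophils out of the blood into the capillaries and air spaces. Lung endothelium, the cell layer that lines the blood vessels, is kept quiet by laminar blood flow, through KLF2 and KLF4. The bone morphogenetic proteins BMP9 and BMP10 also keep it quiet, through the receptor ALK1, its partner endoglin and the SMAD proteins.

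Il6, which encodes interleukin 6, and the neutrophil chemokine genes Cxcl1, Cxcl2 and Cxcl3 lay above control on every ventilated array. Their promoters are shown because these 4 genes hold the same short NF-kB motif close to the start of transcription. The lines give the 150 bases before the start, 5′ to 3′, from RefSeq, build GRCm38.p6, with the motif match in capitals.
Il6, chr5:30012964-30013113, plus strand: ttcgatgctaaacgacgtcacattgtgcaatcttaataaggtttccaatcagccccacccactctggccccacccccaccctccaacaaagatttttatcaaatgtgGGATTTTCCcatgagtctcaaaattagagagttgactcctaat
Cxcl1, chr5:90891095-90891244, plus strand: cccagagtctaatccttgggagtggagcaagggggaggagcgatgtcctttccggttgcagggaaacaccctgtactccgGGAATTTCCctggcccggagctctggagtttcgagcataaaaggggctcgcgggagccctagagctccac
Cxcl2, chr5:90903749-90903898, plus strand: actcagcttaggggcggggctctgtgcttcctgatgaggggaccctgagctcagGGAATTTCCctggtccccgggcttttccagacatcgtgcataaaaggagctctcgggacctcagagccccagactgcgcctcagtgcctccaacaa
Cxcl3, chr5:90785951-90786100, plus strand: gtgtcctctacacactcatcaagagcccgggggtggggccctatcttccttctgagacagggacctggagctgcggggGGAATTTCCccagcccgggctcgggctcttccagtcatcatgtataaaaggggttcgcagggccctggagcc
The motif searched was GGANTTTCC, on both strands, over the 250 bases before each start. Counted back from the start, where -1 is the last base before it, the match covers -43 to -35 in Il6, -70 to -62 in Cxcl1, -96 to -88 in Cxcl2 and -72 to -64 in Cxcl3. A match was present for 337 of 27025 genes with a promoter in the table (1.25%) and for 4 of the 19 tested chemokine genes found there, Cxcl10 being the other. Of 12 tested NF-kB genes found there 4 held it, as did 3 of 22 IL-1 and TNF family genes and 3 of 26 immediate early genes. Among neutrophil markers 1 of 17 held it, and among stretch and matrix genes 0 of 24. Of 18 genes of the IL-6 and STAT3 list 1 did, Il6. The search was exact, so a match or its absence describes only these letters. The STAT motif TTCNNNGAA, present for 8.13% of all genes, was found for 1 of the same 18, Socs3, and the AP-1 motif TGANTCA, at 7.82%, for 3, Il6, Il11 and Lif.

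The 3 ventilated arrays differed from each other more than the control arrays did. Correlations over all non-control probe sets were 0.996 to 0.997 among control arrays and 0.983 to 0.993 among ventilated arrays. The SD was larger in ventilation than in control for 9770 of the genes tested (75.6%), with a median of 0.16 against 0.09. Lung markers were high on all 6, with the surfactant gene Sftpc at 14.76 to 14.95 and the club cell gene Scgb1a1 at 14.82 or more, while the thymus markers Rag1, Dntt and Ptcra stayed below the filter. Array medians of the series ran from 7.0 to 7.07.

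Each ventilated array also differed from the other ventilated arrays in some gene group. In replicate 2 the 18 heat shock genes, chaperones made when proteins unfold, averaged 1.39 above the control mean, against -0.16 in replicate 1 and -0.83 in replicate 3. The chaperone gene Hsph1, for example, stood at 11.06, 11.65 and 11.89 in control and at 11.12, 14.45 and 9.66 in ventilation. In replicate 3 the 7 skeletal muscle genes averaged 2.28 above control, against -0.53 and -0.09, with the skeletal actin gene Acta1 at 11.48 there and 7.32 and 7.34 on the other ventilated arrays. In replicate 1 the 13 cardiac muscle genes averaged -1.58, against -0.20 and 0.21, and the 13 smooth muscle genes -1.08, against -0.10 and -0.29. Control replicate 1 stood apart as well, with cardiac muscle genes at 0.64 and adipocyte genes at 0.59 above the control mean, against -0.45 to -0.19 in the other control arrays for both groups. Such shifts were not confined to ventilated arrays. On rhPBEF replicate 2, which was not ventilated, the skeletal muscle genes averaged 3.14 above the control mean, with Acta1 at 12.28. The heat shock genes averaged -0.62, -1.15 and -1.14 on the rhPBEF arrays. The part of these tissue and stress genes in the results below was not tested. The plot of list means by array shows which groups rest on which array.

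**Figure D1:**
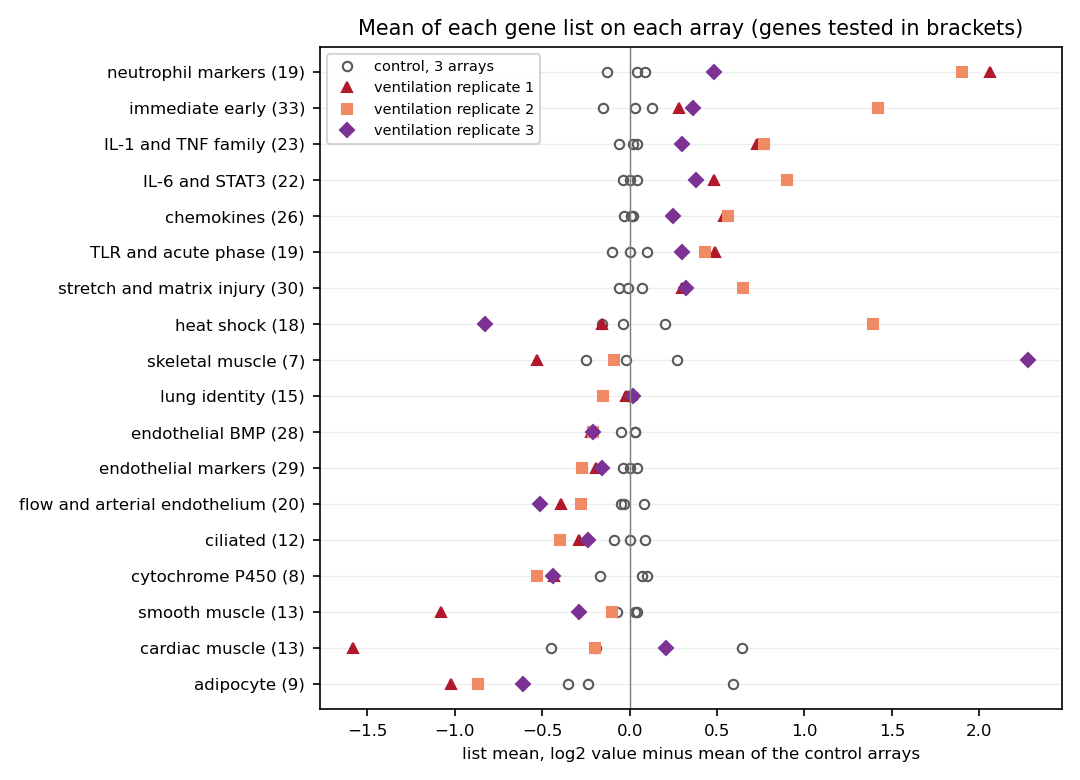
Mean log2 value of 18 gene lists on each of the 6 arrays, as the deviation from the mean of the control arrays, with open circles for control and filled symbols for ventilation replicates 1, 2 and 3. Neutrophil markers stood at 2.06, 1.90 and 0.48 on the ventilated arrays, whereas the endothelial BMP list stood at -0.22, -0.21 and -0.21. The median difference of that BMP list was -0.04, as over all genes tested. Its mean on replicate 2 takes in Tmem100 at 9.64, against 12.66 to 12.74 in control.

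A single gene passed the test, Ephb4, which fell with ventilation. It encodes the receptor tyrosine kinase that binds ephrin-B2 on neighbouring cells and marks venous and capillary endothelium. Its level was 10.01, 9.93 and 9.92 on the control arrays and 9.21, 8.93 and 9.27 on the ventilated arrays. The ventilated values were close together and all lay below the control values. Ephb4 fell by 0.82 ± 0.10 (SE) on the log2 scale, with a limma adjusted p of 0.0431. It was 1 of 12921 genes tested (0.00774%). Over 24 alternative settings its difference ran from -0.88 to -0.72, but its adjusted p ran from 0.000754 to 0.196 and passed in 15 of them. It did not pass without any 1 of the 3 control arrays, where its adjusted p was 0.0704 to 0.196.

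The rest of the Eph and ephrin family lay near control. Of 15 tested members 9 were positive and 6 negative, with a median difference of 0.02, beside -0.04 over all genes tested. The ligand gene of Ephb4, Efnb2, stood at 11.52, 11.62 and 11.86 in control and 11.75, 11.68 and 11.65 in ventilation. The ephrin-B1 ligand gene Efnb1 lay lower on every ventilated array (-0.39 ± 0.18 SE, limma adjusted p = 0.324), and the epithelial receptor gene Epha2 lay higher on every one (0.59 ± 0.20 SE, limma adjusted p = 0.215). The other 12 tested members, Efnb2 included, overlapped between groups.

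Outside Ephb4 the test gave no call, and the leading genes lay just past the threshold. Trim15, which encodes a RING-finger ubiquitin ligase, stood at 5.69, 5.76 and 5.98 in control and 6.94, 7.70 and 7.05 in ventilation, a difference of 1.42 ± 0.19 (SE, limma adjusted p = 0.0523). N4bp3 stood at 9.47, 9.46 and 9.35 in control and 8.65, 8.84 and 8.52 in ventilation, a difference of -0.75 ± 0.10 (SE, limma adjusted p = 0.0523). In both genes the groups did not overlap, though the control values of Trim15 lay under the filter level of 6.42. At a looser limit of 0.1 there were 49 genes, 27 higher and 22 lower.

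At an unadjusted p under 0.05 there were 719 genes higher (5.56%) and 1285 lower (9.95%). The higher ones made up 35.9% of these, 43.4% when each array was centred on its median and 46.3% after quantile normalization. A plainer count takes genes whose 3 ventilated values all lie above, or all below, the 3 control values. It gave 1176 genes higher (9.10%) and 1997 lower (15.5%). These shares are the background for the gene lists below, where such a gene is said to lie wholly above or wholly below control. The number past the adjusted test depended on single arrays. It was 43 without ventilation replicate 3, 15 without ventilation replicate 1 and 5 without ventilation replicate 2. It was 6 without rhPBEF replicate 2, 11 without rhPBEF plus ventilation replicate 3 and 0 without any other array.

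The larger differences ran upwards. Among genes wholly above or below control, 88 stood at least 2-fold higher and 18 at least 2-fold lower. Of the 88, 56 were highest on ventilation replicate 2, 24 on replicate 1 and 8 on replicate 3, and 52 were lowest on replicate 3. The 15 furthest above control were led by Il6 and held the neutrophil genes Mmp8, Clec4d, S100a9, Clec4e, S100a8 and Il1r2, the chemokine gene Cxcl2 and the cytokine gene Il1b. The 15 furthest below held the metabolic genes Pck1, Cyp2e1, Adipoq, Thrsp, Car3 and Cidec and the vascular genes Tmem100, Sox18, Smad6 and Klf2. All control values of Il6, Cxcl2, Clec4e and Rdh12 lay under the filter level, which these genes passed through other arrays, so the size of their differences rests on levels that could not be told from background. Probe sets disagreed for Thrsp, whose 3 ran from -1.27 to 0.03, and differed in size for Clec4e, whose pair gave 1.11 and 2.69. The plot of these genes gives each of them on every array.

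**Figure D2:**
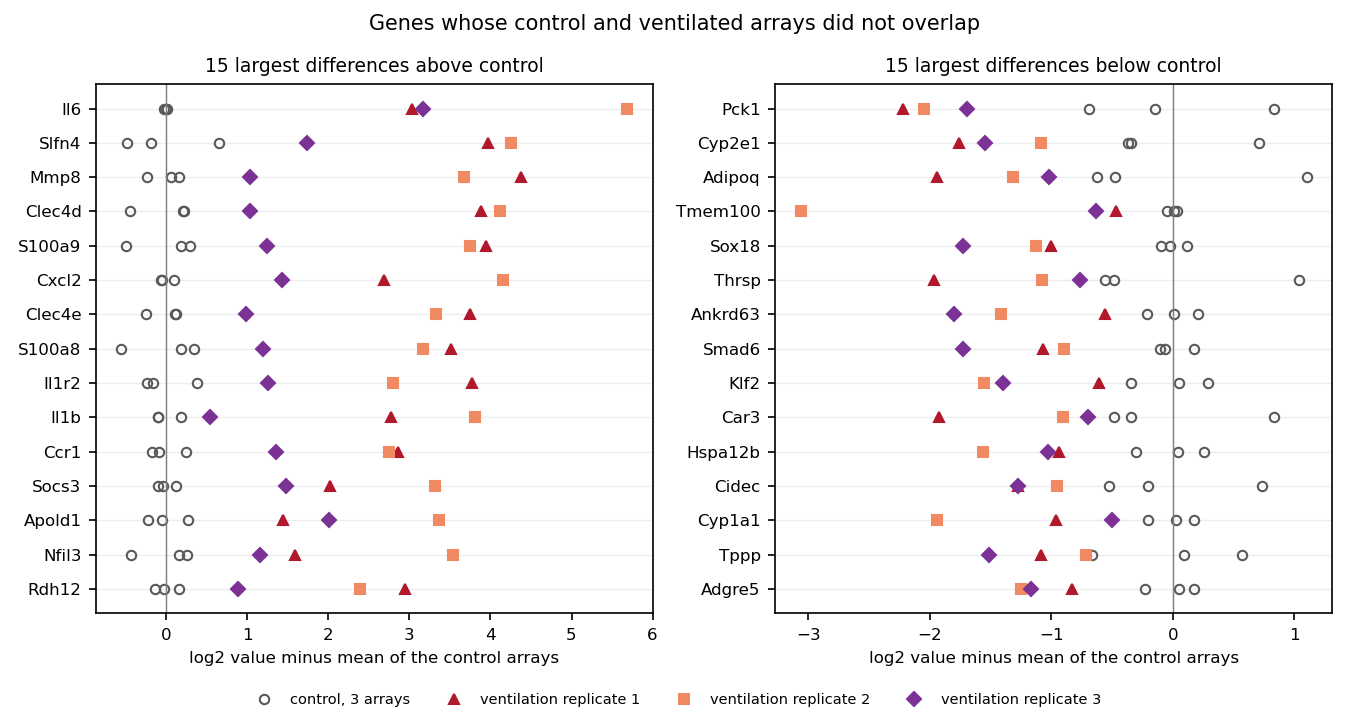
The 15 genes with the largest difference above control (left) and below it (right) among genes whose groups did not overlap, as log2 value minus the control mean, 1 symbol per array. Il6, whose control values lay under the filter level, lies furthest to the right, Mmp8 was closest to control on ventilation replicate 3, and the adipocyte genes Adipoq and Cidec were highest in 1 of the control arrays.

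Il6, the cytokine that starts the acute phase response, lay wholly above control. It was at the low end of the scale in control, at 4.63, 4.59 and 4.61, and stood at 7.65, 10.30 and 7.78 after ventilation. All ventilated arrays were far above control, with replicate 2 above the other two. The fitted difference was 3.97 ± 0.67 (SE), with a limma adjusted p of 0.0909. No fold is given, since the control values lay under the filter level and could not be told from background. Related ligands were wholly above control with smaller differences, the oncostatin M gene Osm (1.17 ± 0.43 SE) and the leukaemia inhibitory factor gene Lif (0.83 ± 0.46 SE). The ligand genes Il11, Clcf1 and Ctf1 overlapped between groups.

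Receptors and feedback genes of the same pathway followed in part. The oncostatin M receptor gene Osmr stood at 10.75, 10.79 and 10.75 in control and 11.44, 11.78 and 11.42 in ventilation. The shared signal chain gene Il6st (0.05 ± 0.15 SE) and the IL-6 receptor gene Il6ra (-0.11 ± 0.17 SE) overlapped with control. Stat3, the transcription factor of the pathway, lay wholly above control at 12.58, 13.02 and 12.56 against 12.23, 12.20 and 12.31. Socs3, the inhibitor that STAT3 induces to shut the receptor down, stood at 9.57, 9.35 and 9.41 in control and 11.47, 12.76 and 10.93 in ventilation. Its difference was 2.28 ± 0.36 (SE), 4.85-fold, with a limma adjusted p of 0.0848. The STAT3-responsive genes Bcl3 (1.26 ± 0.33 SE) and Cebpd (0.85 ± 0.16 SE) also lay wholly above control. Of the 22 tested genes of the IL-6 and STAT3 list 11 did and 0 lay wholly below, with a median of 0.32.

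Of the 6 tested chemokine genes that attract neutrophils 3 lay wholly above control, with a median of 1.10. Cxcl2 stood at 5.48, 5.33 and 5.31 in control and 8.06, 9.53 and 6.80 in ventilation, a fitted difference of 2.76 ± 0.52 (SE), with a limma adjusted p of 0.0909. Its control values too lay under the filter level. Cxcl1, its close relative, stood at 7.96, 7.86 and 7.94 in control and 9.07, 9.57 and 8.69 in ventilation, though its 3 probe sets gave differences from 0.25 to 2.80. In both genes replicate 2 was highest and replicate 3 lowest of the ventilated arrays. Cxcl3 stood at 4.65, 5.30 and 3.88 in ventilation and 3.41 to 3.78 in control, all under the filter level, and was tested only because it was high on the arrays with rhPBEF. Cxcl5 stood at 4.11, 5.13 and 5.93 in control, also under the filter level, and at 7.08, 7.31 and 4.98 in ventilation, so the groups overlapped. Cxcl2 and Cxcl3 are 2 of the 3 chemokine genes counted as wholly above, so that count says little of their levels in control. The median of 1.10 takes in Cxcl2, Cxcl3 and Cxcl5, so it too rests in part on levels that could not be told from background. The epithelial chemokine gene Cxcl15, abundant in lung, was at 13.79 to 13.92 in control and 13.78 to 14.09 in ventilation.

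Chemokines for other cells lay closer to control. The monocyte chemokine genes Ccl2 (0.86 ± 0.55 SE) and Ccl7 (0.65 ± 0.42 SE) lay wholly above control, as did Ccl4, Ccl5 and the interferon-responsive Cxcl10 (0.82 ± 0.71 SE). Ccl11, Ccl20, Ccl22 and Cxcl13, which attract eosinophils, dendritic cells and lymphocytes, overlapped between groups. Of 26 tested chemokine genes 8, Cxcl2 and Cxcl3 included, were wholly above and 0 wholly below, with a median of 0.29. That median was 0.15 without ventilation replicate 1 and 0.18 without control replicate 2.

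The interleukin 1 branch stood above control and Tnf barely did. Il1b, the inflammasome product, stood at 8.23, 7.94 and 7.94 in control and 10.81, 11.85 and 8.58 in ventilation, a difference of 2.38 ± 0.73 (SE, limma adjusted p = 0.194). The antagonist gene Il1rn (1.25 ± 0.55 SE) and the decoy receptor gene Il1r2 (2.61 ± 0.56 SE) lay wholly above control on the same pattern, with replicate 3 lowest. Tnf stood at 6.97, 6.96 and 6.85 in control and 7.05, 7.12 and 7.06 in ventilation, a difference of 0.15 ± 0.15 (SE). The alarmin gene Il33, expressed in alveolar epithelium, stood at 11.43, 11.59 and 11.14 in ventilation, wholly above control by 0.81 ± 0.29 (SE). Tnfrsf12a, the receptor for TWEAK that is induced by injury, lay above control by 1.01 ± 0.27 (SE), and the TNF-family ligand gene Tnfsf9 by 1.38 ± 0.41 (SE). Of 23 tested genes 13 were wholly above and 0 wholly below, with a median of 0.32.

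Genes that NF-kB switches on were split. Nfkbiz, an atypical inhibitor protein that helps induce Il6, stood at 9.03, 9.26 and 9.19 in control and 9.79, 11.71 and 9.89 in ventilation. Tnfaip3, the feedback inhibitor A20, lay wholly above control by 0.86 ± 0.30 (SE), while Nfkbia, the classical inhibitor, overlapped (-0.01 ± 0.14 SE). Traf1, an adaptor of TNF receptors, went the other way, from 8.39, 8.65 and 8.09 to 7.61, 7.31 and 7.57, a difference of -0.88 ± 0.16 (SE, limma adjusted p = 0.0909). Of 15 tested members 7 were wholly above and 1 wholly below, with a median of 0.26.

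Among receptors for microbial products, Cd14 (0.87 ± 0.32 SE) and the adaptor gene Myd88 (0.65 ± 0.21 SE) lay wholly above control, and Tlr2 and Tlr4 overlapped with it on replicate 3. Of the acute phase genes Saa3 stood at 7.83, 7.44 and 7.55 in control and 9.94, 8.83 and 8.83 in ventilation. Fgg, a fibrinogen chain, stood at 6.30, 6.10 and 6.49 in control and 6.99, 7.39 and 7.35 in ventilation, a difference of 0.95 ± 0.16 (SE, limma adjusted p = 0.0876). Its ventilated values were close together, unlike those of most inflammatory genes, but its control values of 6.30 and 6.10 lay under the filter level. Of the 19 tested genes 5 were wholly above and 0 wholly below, with a median of 0.40. The plot of cytokine, chemokine and NF-kB genes gives these levels array by array.

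**Figure D3:**
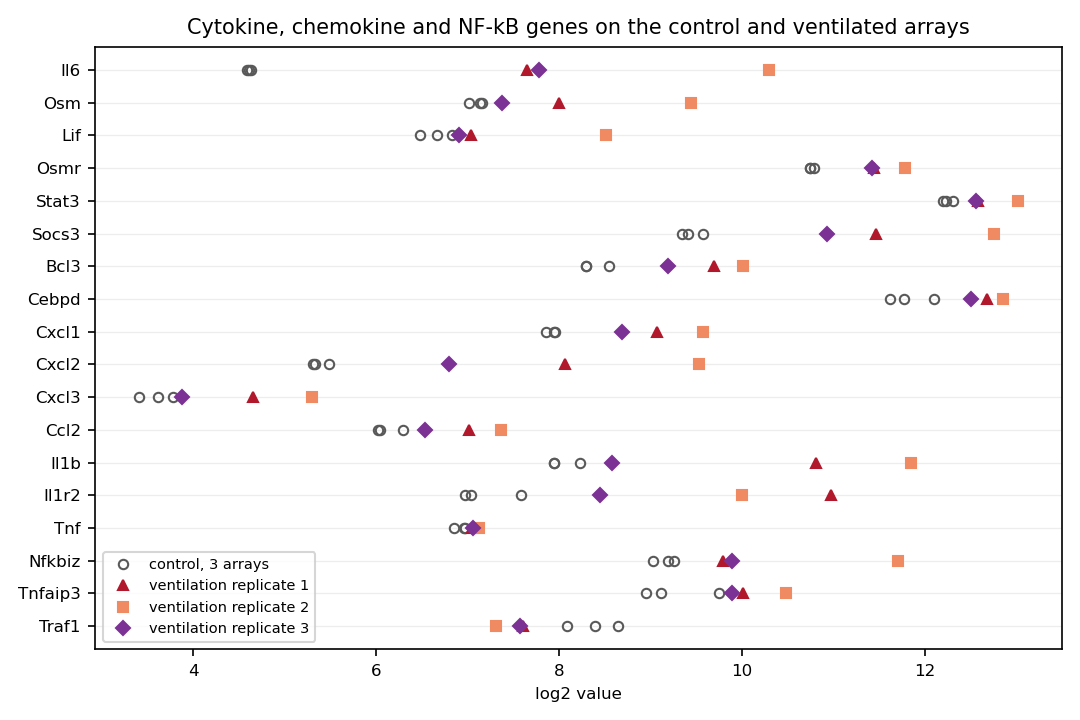
Log2 values of 18 cytokine, chemokine and NF-kB genes on the 3 control arrays (open circles) and on ventilation replicates 1 to 3 (filled symbols). Il6, Cxcl2 and Cxcl3 had control values under the filter level of 6.42, Tnf differs by 0.15, and Traf1 lies below control on every ventilated array.

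Neutrophil markers formed the list furthest above control, and they split the ventilated arrays. S100a9, a subunit of the calprotectin that fills the neutrophil cytoplasm, stood at 9.88, 9.20 and 9.98 in control and 13.63, 13.44 and 10.93 in ventilation. Mmp8, the neutrophil collagenase, stood at 7.32, 7.02 and 7.41 in control and 11.63, 10.93 and 8.29 in ventilation. Csf3r, the receptor for granulocyte colony-stimulating factor, stood at 8.62, 8.52 and 8.73 in control and 11.12, 10.96 and 8.92 in ventilation. Replicates 1 and 2 were high and close together for all of them, and replicate 3 lay much closer to control. The differences were 2.98 ± 0.61 (SE) for S100a9, 3.03 ± 0.74 (SE) for Mmp8 and 1.71 ± 0.46 (SE) for Csf3r, with limma adjusted p of 0.110, 0.137 and 0.159.

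Of 19 tested neutrophil markers 12 were wholly above control and 0 wholly below, with a median of 1.23. Of 25 listed markers only these 19 passed the filter. Clec4e, wholly above, stood at 6.23, 6.24 and 5.87 in control, under the filter level, and passed it through other arrays. The count and median therefore lean towards markers that were high on treated arrays. Slfn4, which is not on the list, had the same pattern, at 6.14, 5.84 and 6.98 in control and 10.29, 10.57 and 8.06 in ventilation. The granule genes for neutrophil elastase, Elane (-0.06 ± 0.10 SE), and lactoferrin, Ltf (0.31 ± 0.24 SE), stood closer to control. Without ventilation replicate 3, S100a8, S100a9, Mmp8, Csf3r, Clec4d, Clec4e, Il1r2, Slfn4, Ccr1, Cxcl2, Il1b, Il6 and Socs3 were among the 43 genes past the test. In that setting S100a9 was 3.85 and Mmp8 4.03 above control. Replicate 3 was the lowest ventilated array for all the genes just named but Il6. Larger differences without it were therefore fixed in advance and are not separate support. In whole lung, more cells of a type and more RNA per cell cannot be told apart.

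Other leukocyte markers did not share this pattern. Of the 10 tested alveolar macrophage markers 9 were negative, with a median of -0.24. At an unadjusted limma p under 0.05, 4 were lower, and 2 lay wholly below control and 0 wholly above. The 4 include Cidec (-1.17 ± 0.25 SE), wholly below and also on the adipocyte list, and Fabp4 (-0.80 ± 0.32 SE), also expressed in fat. Both were highest on control replicate 1, as the adipocyte genes were. The 10 monocyte and general macrophage markers had a median of 0.14, with 2 wholly above. For T cell markers 0 of 7, for B cell markers 1 of 7 and for NK cell markers 0 of 4 lay wholly above control, and none lay wholly below.

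Molecules that bring neutrophils to the vessel wall were mixed. P-selectin, Selp, which platelets and endothelium show within minutes of activation, stood at 7.65, 6.89 and 7.54 in control and 8.41, 10.31 and 8.15 in ventilation. Its neutrophil ligand gene Selplg lay wholly above control by 0.72 ± 0.21 (SE), and so did the integrin gene Itgam by 1.15 ± 0.41 (SE). Icam1 and Vcam1, the endothelial ligands of leukocyte integrins, lay wholly above control by 0.34 ± 0.18 (SE) and 0.53 ± 0.25 (SE). Icam2, which endothelium expresses at rest, lay wholly below, by -0.47 ± 0.17 (SE). Of 14 tested adhesion genes 5 were wholly above and 4 wholly below.

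Immediate early genes were above control on all ventilated arrays as a group, and far above on replicate 2. On average they lay 0.28, 1.42 and 0.36 above control on ventilation replicates 1, 2 and 3. Egr2, a zinc-finger factor induced by growth signals, stood at 6.96, 6.03 and 6.21 in control and 7.38, 9.20 and 7.76 in ventilation. Nr4a1, an orphan nuclear receptor, stood at 10.12, 9.35 and 9.92 in control and 10.18, 13.28 and 10.64 in ventilation. Of the AP-1 subunits, Fos (1.35 ± 0.44 SE), Fosl2 (1.03 ± 0.24 SE) and Junb (1.21 ± 0.39 SE) lay wholly above control and Jun overlapped with it (0.42 ± 0.27 SE). Zfp36, which destroys cytokine messages, lay wholly above control by 0.90 ± 0.22 (SE).

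Of 33 tested immediate early genes 31 were positive, 13 were wholly above control and 2 wholly below, with a median of 0.68 that became 0.36 without ventilation replicate 2. The 2 below were Klf4, kept up by blood flow in endothelium, and Klf10, induced by TGF-beta. Klf10 stood at 9.99, 10.10 and 10.16 in control and 9.68, 9.23 and 9.74 in ventilation, a difference of -0.54 ± 0.14 (SE, limma adjusted p = 0.159). The stretch-responsive matricellular genes Ccn1 (0.91 ± 0.54 SE) and Ccn2 (0.20 ± 0.31 SE) overlapped between groups. Ccn1 stood at 10.97 in ventilation replicate 1, below all control values, and at 13.74 in replicate 2.

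Genes of matrix injury and stretch were above control in part. Has1, which makes hyaluronan, stood at 7.77, 7.45 and 7.15 in control and 8.55, 10.01 and 8.26 in ventilation, a difference of 1.49 ± 0.40 (SE, limma adjusted p = 0.160). Hyal2, which degrades it, went from 10.38, 10.24 and 10.25 to 9.90, 8.77 and 9.58, a difference of -0.88 ± 0.22 (SE, limma adjusted p = 0.138). The hyaluronan receptor gene Cd44 lay wholly above control by 0.36 ± 0.16 (SE). Thrombospondin 1, Thbs1 (1.27 ± 0.37 SE), the urokinase receptor, Plaur (1.23 ± 0.33 SE), and TGF-beta 2, Tgfb2 (0.69 ± 0.19 SE), also lay wholly above control.

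Mechanosensor genes themselves stayed near control. The channel genes Piezo1 (0.07 ± 0.11 SE) and Trpv4 (-0.14 ± 0.10 SE) and the coactivator gene Yap1 (-0.09 ± 0.08 SE) overlapped between groups. The YAP targets Ankrd1 (-0.36 ± 0.42 SE) and Amotl2 (0.16 ± 0.39 SE) overlapped as well. Of 30 tested genes of the stretch and matrix list 12 were wholly above and 1 wholly below, with a median of 0.27.

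The EGF receptor family is shown because its ligands are shed from stretched epithelium. Of 7 tested members 3 lay wholly above control and 2 wholly below, with a median of 0.44 that became 0.23 with the mean of each gene's probe sets. Hbegf, a ligand cut from the cell surface, stood at 10.40, 10.24 and 10.16 in control and 10.62, 11.79 and 11.29 in ventilation. Betacellulin, Btc, lay wholly above control by 0.48 ± 0.13 (SE), and Tgfa overlapped. Egfr lay wholly above control by 0.44 ± 0.16 (SE), though its 5 probe sets ran from -0.01 to 0.44, and its partner genes Erbb2 (-0.30 ± 0.10 SE) and Erbb3 (-0.18 ± 0.11 SE) lay wholly below. Of the genes below the filter, the ligand gene Ereg stood at 4.75, 4.66 and 4.79 in control and 5.63, 6.45 and 6.51 in ventilation.

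In the endothelial BMP pathway 3 of 8 tested receptor genes and 3 of 9 tested targets and inhibitors lay wholly below control, and none of either wholly above. Eng, which encodes endoglin, stood at 12.38, 12.38 and 12.43 in control and 11.89, 11.75 and 11.57 in ventilation, a difference of -0.66 ± 0.09 (SE, limma adjusted p = 0.0625). Acvrl1, which encodes ALK1, stood at 11.36, 11.54 and 11.33 in control and 10.80, 10.69 and 10.59 in ventilation, a difference of -0.72 ± 0.12 (SE, limma adjusted p = 0.0848). In both the 3 ventilated values lay close together and below every control value. The type II receptor gene Acvr2b lay wholly below control by -0.52 ± 0.16 (SE). Bmpr2, the type II receptor mutated in pulmonary hypertension, overlapped with control (-0.25 ± 0.13 SE), as did the general BMP receptor gene Bmpr1a (0.03 ± 0.11 SE).

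Downstream, Smad6, an inhibitory SMAD that flow and BMP induce, stood at 12.18, 12.22 and 12.46 in control and 11.22, 11.39 and 10.56 in ventilation. Its difference was -1.23 ± 0.24 (SE, limma adjusted p = 0.0918), or 2.34-fold lower. Smad7, the related inhibitor, lay wholly below control by -0.45 ± 0.17 (SE), and the signal carriers Smad4 and Smad5 overlapped with it. Smad1 lay wholly above control by 0.52 ± 0.22 (SE). Id1, the most direct BMP target, stood at 12.05, 11.67 and 11.79 in control and 11.23, 11.45 and 10.98 in ventilation, whereas Id2, Id3 and Id4 overlapped. Tmem100, which needs ALK1 for its expression in endothelium, stood at 12.74, 12.71 and 12.66 in control and 12.24, 9.64 and 12.07 in ventilation, so that replicate 2 alone made most of its difference of -1.39 ± 0.54 (SE).

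Of the ligands, Bmp6 lay wholly below control by -0.51 ± 0.18 (SE) and Bmp2 wholly above by 0.64 ± 0.35 (SE), with replicate 2 at 9.26 and the others, at 7.69 and 7.66, next to the highest control value of 7.66. Gdf2, which encodes BMP9, overlapped (0.04 ± 0.08 SE). Over the 28 tested genes of the list the median was -0.04, as over all genes, since most members overlapped. The list nevertheless held 9 genes wholly below control and 2 wholly above.

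Genes kept up by laminar flow lay lower on the ventilated arrays. Klf2, the main flow-induced factor of resting endothelium, stood at 12.53, 11.90 and 12.29 in control and 11.63, 10.69 and 10.84 in ventilation, a difference of -1.19 ± 0.23 (SE, limma adjusted p = 0.0967). Its anticoagulant target gene Thbd (-0.46 ± 0.13 SE) and Klf4 (-0.44 ± 0.24 SE) lay wholly below control. Nos3, the endothelial nitric oxide synthase, stood at 9.14, 8.87 and 8.71 in control and 8.28, 8.22 and 8.72 in ventilation, so that replicate 3 reached the lowest control value. Edn1, the vasoconstrictor endothelin that KLF2 represses, lay within the control range of 9.75 to 10.52 except on replicate 2, where it stood at 11.79.

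Arterial factors lay lower too. Sox18 stood at 11.88, 12.02 and 11.81 in control and 10.90, 10.78 and 10.18 in ventilation, a difference of -1.28 ± 0.29 (SE, limma adjusted p = 0.125). Its relative Sox17 lay wholly below control by -0.54 ± 0.20 (SE), and Sox7 overlapped. In the Notch pathway the endothelial receptor gene Notch4 (-0.46 ± 0.14 SE), the ligand gene Jag2 (-0.29 ± 0.08 SE) and the target Hey1 (-0.67 ± 0.25 SE) lay wholly below control. Notch1, Dll4 and Hes1 overlapped. The gap junction gene Gja4 of arterial endothelium stood at 9.82, 9.75 and 10.34 in control and 9.13, 7.95 and 9.63 in ventilation. Of 20 tested genes of the flow and arterial list 10 were wholly below control and 0 wholly above, with a median of -0.36.

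As a list, general endothelial markers lay closer to control than the flow and arterial genes (median -0.36). They did not lie closer than the endothelial BMP list (median -0.04), and single markers were split. Pecam1, present on all endothelium, lay wholly below control, at 12.15, 12.22 and 12.28 in control and 12.03, 11.83 and 12.00 in ventilation. Its difference was -0.27 ± 0.08 (SE, limma adjusted p = 0.190). The junction genes Cdh5 (-0.14 ± 0.14 SE), Cldn5 (-0.12 ± 0.20 SE) and Esam (0.08 ± 0.10 SE) overlapped between groups, as did the transcription factor gene Erg (-0.01 ± 0.12 SE). Egfl7, a secreted endothelial protein, stood at 11.98, 12.05 and 12.10 in control and 11.56, 11.27 and 11.50 in ventilation, a difference of -0.60 ± 0.11 (SE, limma adjusted p = 0.0909). Ramp2, the adrenomedullin receptor subunit that guards the vascular barrier, lay wholly below control by -0.72 ± 0.18 (SE). Over the 29 markers 11 were wholly below control and 1 wholly above, with a median of -0.20 and list means of -0.19, -0.27 and -0.16 on the ventilated arrays. Fewer endothelial cells and less RNA per cell cannot be told apart here.

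Adgre5 and Hspa12b, among the 15 genes furthest below control, were low on each ventilated array. Adgre5, which encodes the adhesion receptor CD97, stood at 12.49, 12.61 and 12.21 in control and 11.61, 11.19 and 11.27 in ventilation, a difference of -1.08 ± 0.20 (SE, limma adjusted p = 0.0909). Hspa12b, a chaperone-like protein of endothelium, stood at 9.64, 9.43 and 9.08 in control and 8.45, 7.82 and 8.36 in ventilation. Apold1, an endothelial gene of the early response, lay on the other side, at 7.26, 7.09 and 7.58 in control and 8.76, 10.68 and 9.32 in ventilation, a difference of 2.28 ± 0.53 (SE, limma adjusted p = 0.130). The plot of endothelial genes sets these beside the arrays with rhPBEF.

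**Figure D4:**
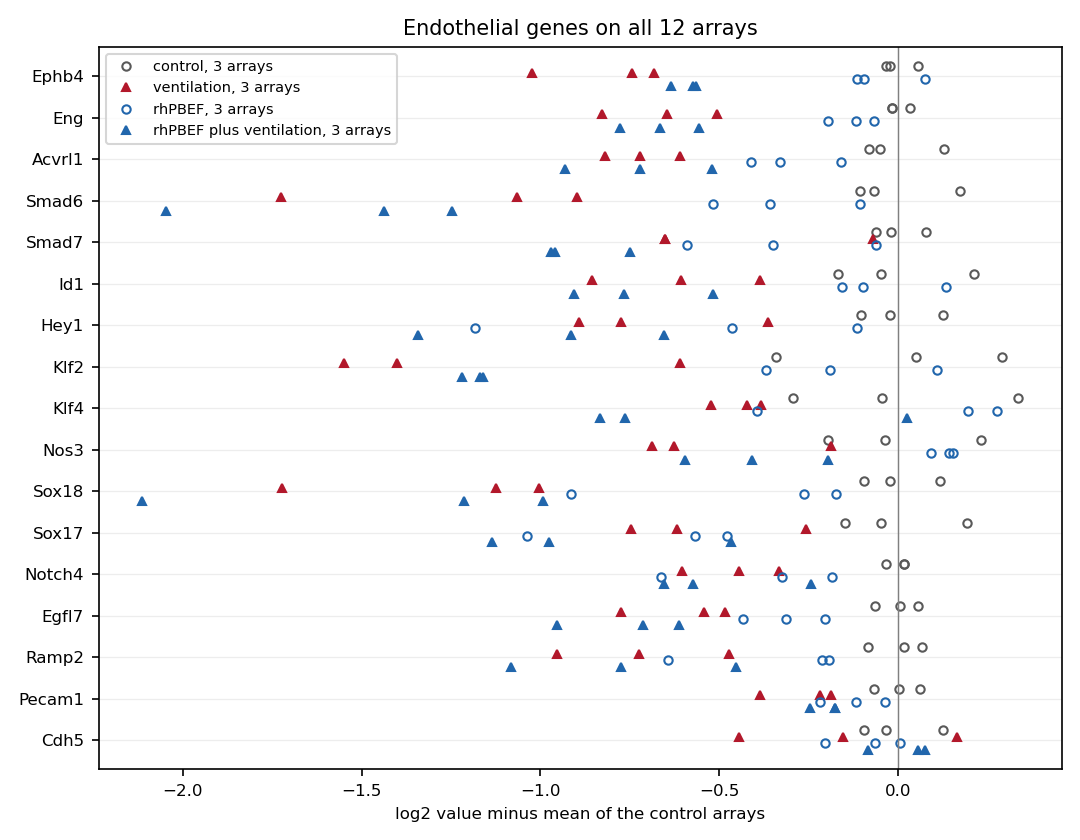
Log2 value minus the control mean for 17 endothelial genes on all 12 arrays, with open symbols for unventilated and filled triangles for ventilated mice, and blue for rhPBEF. Smad6, Eng, Ephb4 and Id1 lie to the left of their unventilated group with and without rhPBEF. Without rhPBEF, Pecam1 (-0.27) also lies below control on every ventilated array, whereas Cdh5 (-0.14) overlaps with control.

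Fat genes were among those furthest below control, and control replicate 1 was high in them. Pck1, a gluconeogenic enzyme also active in fat, stood at 9.03, 7.51 and 8.05 in control and 5.98, 6.15 and 6.50 in ventilation, a difference of -1.99 ± 0.33 (SE, limma adjusted p = 0.0848). The ventilated values of 5.98 and 6.15 lay under the filter level, so the size of this difference is uncertain. The adipokine gene Adipoq stood at 11.08, 9.35 and 9.50 in control and 8.04, 8.66 and 8.96 in ventilation. The ventilated values lay below control in both, also when set against the lower 2 control arrays. Cyp2e1, a fat and liver oxidase, was likewise highest on control replicate 1, at 11.89, 10.83 and 10.81 in control and 9.42, 10.09 and 9.63 in ventilation. Of 9 tested adipocyte markers 5 were wholly below control and 0 wholly above, with a median of -0.80 that became -0.53 without control replicate 1.

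Muscle and airway lists differed in what they rested on. All 13 smooth muscle markers were negative and 7 lay wholly below control, with a median of -0.57 that became -0.23 without ventilation replicate 1. Myh11, the smooth muscle myosin, stood at 10.86, 10.89 and 10.84 in control and 9.48, 10.57 and 10.38 in ventilation, and its 2 probe sets gave differences of -0.72 and -0.07. Cardiac muscle markers, which reach lung samples with the pulmonary veins or the heart, overlapped between groups for all 13. Their median of -0.57 became -0.06 without ventilation replicate 1, -0.86 without ventilation replicate 3 and -0.32 without control replicate 1. Skeletal muscle markers had a median of 0.72, which became 1.13 without ventilation replicate 1 and -0.23 without ventilation replicate 3.

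Ciliated cell markers were lower on each ventilated array, with list means of -0.29, -0.40 and -0.24. Tekt4, a tubulin-bundling protein of the cilium, stood at 8.00, 7.95 and 7.95 in control and 7.21, 6.98 and 7.46 in ventilation. Of 12 tested markers 7 were wholly below control and 0 wholly above, with a median of -0.23. Foxj1, the factor that turns on the ciliary program, overlapped, with replicate 2 at 10.55 above all other arrays. Cytochrome P450 genes also lay low, with 5 of 8 wholly below control, 0 wholly above and a median of -0.21, led by Cyp2e1 and by Cyp1a1 (-1.14 ± 0.38 SE). Surfactant, alveolar type 1 and club cell genes, 15 in all, had a median of -0.05 with 3 wholly below and 0 wholly above.

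Genes for ion and water movement showed opposite shifts. Cftr, the chloride channel, stood at 6.94, 7.02 and 6.92 in control and 7.97, 7.87 and 8.35 in ventilation, a difference of 1.10 ± 0.20 (SE, limma adjusted p = 0.0909). Slc26a4, the anion exchanger pendrin, stood at 6.32, 6.43 and 6.75 in control and 7.29, 8.39 and 8.23 in ventilation. The ventilated arrays were high for both, without the low replicate 3 seen for neutrophil genes. The water channel genes Aqp4 (-0.56 ± 0.14 SE) and Aqp1 (-0.20 ± 0.07 SE) lay wholly below control. The sodium channel subunit genes Scnn1a, Scnn1b and Scnn1g, which drive fluid out of the air space, overlapped between groups, at -0.09, -0.07 and 0.08.

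Clock genes were displaced in both directions. The repressor gene Nfil3 stood at 6.75, 6.16 and 6.84 in control and 8.18, 10.12 and 7.74 in ventilation, and the deadenylase gene Noct at 9.09, 8.58 and 9.13 against 10.31, 11.06 and 10.10. Per3 (-1.07 ± 0.32 SE), the output gene Dbp (-0.96 ± 0.36 SE) and Nr1d1 (-0.53 ± 0.24 SE) lay wholly below control. The labels give no time of day for any group, so time of collection cannot be told apart from ventilation. Of 17 tested clock genes 4 were wholly above and 5 wholly below.

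Stress genes gave a partial picture. The metallothionein genes Mt1 (1.01 ± 0.27 SE) and Mt2 (1.25 ± 0.28 SE), which bind zinc and respond to glucocorticoids, lay wholly above control. Mt2 stood at 12.14, 11.94 and 12.41 in control and 13.43, 12.99 and 13.82 in ventilation. The growth-arrest genes Gadd45a (1.04 ± 0.33 SE), Plk2 (0.92 ± 0.32 SE) and Plk3 (0.77 ± 0.22 SE) lay wholly above control. Of the 21 tested p53 and cell cycle genes 5 did and 1 lay wholly below, with a median of 0.06. The tissue factor gene F3, which starts coagulation, stood at 11.39, 11.71 and 11.90 in control and 12.06, 12.18 and 12.14 in ventilation. Of 18 heat shock genes 1 lay wholly above control, Hspa4, named here for that reason. Lists for hypoxia, ER stress, complement, MHC class II, NAD metabolism, prostaglandins and oxidative stress had medians between -0.12 and 0.19. Single arrays moved some of these, the ER stress median from 0.11 to 0.42 without ventilation replicate 3 and to -0.03 without replicate 2, and the complement median from -0.12 to -0.22 without ventilation replicate 1 and -0.05 without control replicate 1. Of 17 interferon-stimulated genes 5 lay wholly above control and 0 below, with a median of 0.21, and of 13 coagulation and fibrinolysis genes 4 lay above and 1 below, with a median of 0.06. Of 17 fibroblast and collagen genes 4 lay wholly below and 0 above, with a median of -0.21 that became -0.13, -0.04 and -0.37 without ventilation replicates 1, 2 and 3. Nampt, which encodes PBEF itself, stood at 10.54, 10.60 and 10.36 in control and 10.64, 10.44 and 10.63 in ventilation, a difference of 0.07 ± 0.12 (SE, limma adjusted p = 0.783), with 3 probe sets from -0.20 to 0.07.

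The ventilation difference was then read a second time on the 6 arrays with rhPBEF. There 1 gene passed (0.00774%), Acaa1b, a peroxisomal thiolase, which fell by 1.47 ± 0.16 (SE, limma adjusted p = 0.0273) and stood at -0.84 ± 0.16 (SE, limma adjusted p = 0.0954) without rhPBEF. Genes wholly above their unventilated group numbered 662 (5.12%) and genes wholly below 553 (4.28%). Of the 1176 genes wholly above control without rhPBEF, 163 were wholly above again, 13.9% of these and 24.6% of the 662. Of the 1997 wholly below, 212 were wholly below again, 10.6% of these and 38.3% of the 553. In the opposite direction lay 5 and 12 genes.

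Some of the vascular genes described above lay lower with ventilation beside rhPBEF too, and these were picked for being low without it. Smad6 stood at 11.93, 11.77 and 12.18 with rhPBEF and 10.24, 11.04 and 10.85 with rhPBEF and ventilation, a difference of -1.25 ± 0.24 (SE) beside -1.23 without rhPBEF. Klf2 stood at 11.87, 12.05 and 12.35 with rhPBEF and 11.02, 11.07 and 11.08 with both, a difference of -1.03 ± 0.23 (SE). Ephb4 stood at 9.84, 10.03 and 9.86 with rhPBEF and 9.38, 9.32 and 9.39 with both, a difference of -0.55 ± 0.10 (SE). In these 3 genes, as in control, every ventilated value lay below every unventilated one. Eng (-0.54), Acvrl1 (-0.43), Id1 (-0.69), Smad7 (-0.56), Egfl7 (-0.44) and Sox18 (-0.99) were also negative beside rhPBEF, and none of these 9 passed the adjusted test there. Clec14a, Ramp2, Tek and Hey1, wholly below control without rhPBEF, overlapped between groups beside it. Over the whole lists, 6 of 28 endothelial BMP genes were wholly below beside rhPBEF (median -0.09, 11 positive), 5 of 20 flow and arterial genes (median -0.18, 4 positive) and 3 of 29 endothelial markers (median -0.08, 11 positive). Trim15 stood at 1.16 ± 0.19 (SE) beside rhPBEF.

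Neutrophil and chemokine genes had smaller differences there. S100a9 was already at 13.56, 12.87 and 13.07 with rhPBEF alone and stood at 13.87, 12.76 and 12.55 with both, a difference of -0.11 ± 0.61 (SE). Cxcl2 was at 12.82, 12.69 and 12.90 with rhPBEF alone and at 13.18, 12.66 and 12.13 with both. Il6 stood at 8.89, 10.45 and 8.61 with rhPBEF and at 11.66, 10.32 and 11.09 with both, a difference of 1.70 ± 0.67 (SE), with groups that overlapped. Apold1 stood at 7.45, 9.16 and 7.70 with rhPBEF and at 10.18, 8.94 and 9.72 with both. Of the adipocyte genes, Pck1 (-0.40 ± 0.33 SE) and Adipoq (-0.29 ± 0.39 SE) were closer to 0 than without rhPBEF. The difference between the 2 ventilation effects was tested gene by gene as an interaction. It passed for 0 genes with limma, with a lowest adjusted p of 0.998 and 288 genes at an unadjusted p under 0.05, so for no single gene were the 2 effects shown to differ.

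**Figure D5:**
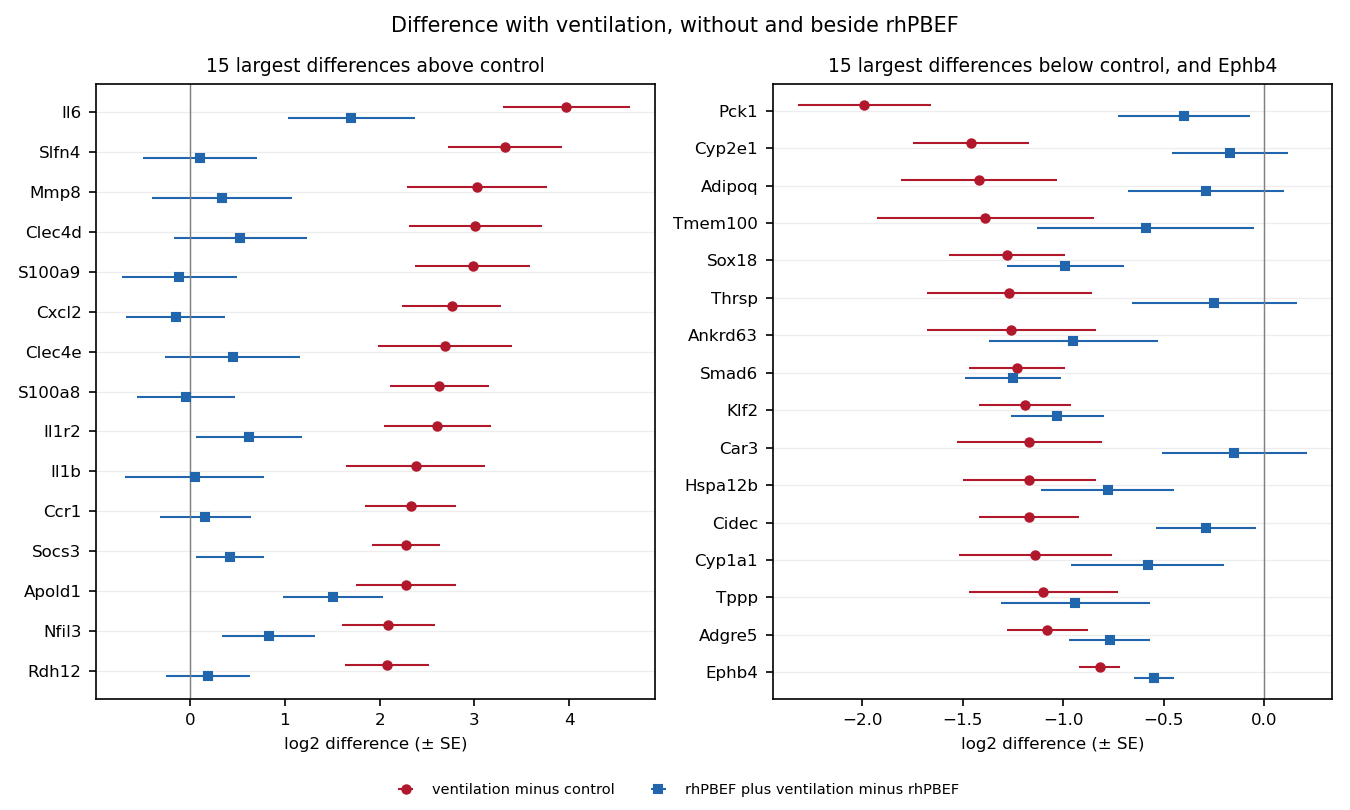
Log2 difference with ventilation, ± SE, without rhPBEF (red circles) and beside it (blue squares), for the 15 largest differences above control, the 15 largest below and Ephb4. Smad6 (-1.23 and -1.25), Klf2, Sox18 and Tppp are among the genes with overlapping error bars, as are Tmem100, Adgre5 and, above control, Apold1. S100a8, S100a9 and Cxcl2 lie near 0 beside rhPBEF.

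The 5272 genes below the filter were fitted in a run without it and none passed. Of the tested genes 9.10% lay wholly above control and 15.5% wholly below. Among the 5272 the order was the reverse, with 601 wholly above control and 179 wholly below. Chosen after their values were seen, the largest were Tnfsf14, a TNF-family ligand, at 5.61, 5.44 and 5.53 in control and 7.48, 7.62 and 6.02 in ventilation, and Nlrp12, a regulator of NF-kB in myeloid cells, at 5.02, 5.10 and 5.08 against 7.42, 6.79 and 5.39. Tnfaip6, whose product binds hyaluronan, stood at 5.29, 4.81 and 4.81 in control and 5.67, 7.18 and 5.55 in ventilation. The table holds no detection calls, so levels this low could not be told from background.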

How the data were processed

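Total lung RNA was hybridised to 12 Affymetrix mouse arrays, 3 in each of 4 groups taken from the sample titles. The authors deposited 1 log2 value per probe set and array, from 2.99 to 15.02. MAS5 and GCRMA are named per the submitters' processing notes, without role or version, so which of them made the values is not given in the sources used here, and the scale was read from the values. These methods treat background differently, so the fold changes of dim genes depend on which was used. Precision is limited by having 3 arrays a group.

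Of 45101 probe sets 64 controls were left out. Gene symbols came from GEO's platform annotation, where 932 probe sets carried several symbols and 9160 none, and these were not used. For 34741 probe sets the Entrez identifier matched RefSeq, which updated 0 symbols. Genes with a mean over the 12 arrays above the 40th percentile were tested with limma 3.58.1 in R 4.3.3 (lmFit on 4 group means over all arrays, then eBayes, 8 residual and 2.99 prior degrees of freedom), with Benjamini-Hochberg adjustment over 12921 genes and a threshold of 0.05. The script was tested on simulated data. An exact permutation test of 3 arrays against 3 cannot go below p = 0.1, so none was used. Replicate numbers did not pair the arrays. Promoters were searched in RefSeq sequence of build GRCm38.p6. Figures were drawn in Python 3.11.15 with matplotlib 3.10.9.

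Named by rule were genes past the adjusted test, the 15 largest differences each way without overlap, up to 4 genes per list, 5 genes per array and Nampt. Other list members were named for their role, and Trim15, N4bp3 and Acaa1b after their values were seen. The members and lists were chosen with earlier results of these data known. Alternatives covered the filter, centring, quantile normalization, the variance model, array weights, the arrays fitted, the probe set rule, the replicate number as a block and leaving out each array.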

Additional observations from a re-analysis of the deposited data

How the results depend on the processing

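Ventilation against control gave 1 gene past the adjusted test. The number was 4 with a variance trend, 4 with the mean of a gene's probe sets, 2 with the most variable probe set, 3 with every probe set tested, and 0 with the 6 arrays compared alone. With array quality weights it was 1123, but that fit stopped before its tolerance and gave 1 array, rhPBEF plus ventilation replicate 2, a weight of 22.7 against 0.165 to 2.63 for the others. With the replicate number as a block it was 0; the deviations of same-numbered arrays correlated at -0.21, 0.017 and 0.16, and of the 3 numbers only number 3 matched its own best, so the arrays share only a number. Leaving out 1 array gave 0 to 43.

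At an unadjusted p under 0.05, higher genes numbered 1521 with weights, 1393 with every probe set and 465 to 911 without 1 array, and lower genes 2010, 2612 and 777 to 1675. Genes wholly above control numbered 1777 without a filter, 2326 with every probe set and 1176 to 1971 without 1 array. Genes wholly below numbered 3808 with every probe set and 1997 to 3316 without 1 array, where fewer arrays make non-overlap easier.

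Beside rhPBEF the number past the test was 670 with weights, 2 with the mean of probe sets, 0 with the arrays compared alone, with every probe set or with the block, and 0 to 3 without 1 array. Of 2313 values for 97 named genes, 2209 kept direction and side of the threshold, 93 passed it newly, 9 lost it, all for Ephb4, and 2 reversed. Most of the new passes came with array quality weights, the fit that stopped before its tolerance, where 72 named genes passed, Ephb4 included. Both reversals were Nampt, at -0.09 with the mean of its probe sets and -0.15 with the most variable one. Apart from these constructions the causes were not tested. Centring moved the clock list's median from -0.01 to 0.00, with 9 positive genes in place of 8. The table holds no detection calls, so what background limits at low values is unknown.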
